A study of Mus musculus with 8 samples.

Results

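The genes of cholesterol and fatty acid synthesis were followed in tumours grown from 4T1.13 cells, a metastatic mouse mammary carcinoma line related to 4T1. The set was chosen by name, with earlier results of these data known, so its shares of calls are not those of a blind choice. It holds 35 of the 27179 genes in the deposited count table. These are 7 genes of the mevalonate steps, 11 of the squalene and sterol steps and 5 for the SREBP factors and their control. Fatty acid synthesis has 6, and desaturation and elongation have 6. All 35 had enough counts to be tested. Total RNA of whole tumours was sequenced from 2 groups of 4 samples, and the comparison asks how the transcriptome of a tumour changes when miR-21 is knocked down in the tumour cells. Cells of the control group (4T1.13-VC) carried a lentiviral vector with a scrambled sequence, and those of the knockdown group (4T1.13-miR-21-KD) carried the miArrest vector, whose transcript binds mature miR-21 and keeps it from its targets. Each line was a pool of clones, both vectors carry a fluorescent and a selection marker, and the host cells of the tumours carried neither. For every tumour 100000 cells were placed in the mammary fat pad of a BALB/c mouse. The labels of all 8 samples give recovery at day 14. The methods of the study give an earlier day, at which knockdown tumours began to shrink. The mice were female and aged 7 to 8 weeks at injection.

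Cells make cholesterol from acetyl-CoA. The mevalonate steps yield farnesyl diphosphate, which squalene synthase commits to sterols, and a chain of enzymes in the endoplasmic reticulum turns squalene into cholesterol. Fatty acid synthesis starts from the same acetyl-CoA, and desaturases and elongases then adjust the acyl chains. Both routes are under the transcription factors of the SREBP family. SREBP2 is known mainly for driving sterol genes and SREBP1 for fatty acid genes, and both are held in the endoplasmic reticulum by SCAP and the INSIG proteins until sterols run low. Adipocytes make lipid in bulk and surround a tumour in the mammary fat pad, so in whole tumours both carcinoma and host cells can supply these transcripts.

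The tumours had totals of 12134849 to 13592695 counts. Levels are given as CPM, the counts of a gene per 1000000 counts of its library after scaling of each library with TMM factors, in the order of tumours 1 to 4 of a group. At this depth a count of 0 allows up to 3 counts, or 0.221 to 0.245 CPM, which covers counting error only. Changes are log2 fold changes of miR-21-KD against VC tumours from the quasi-likelihood test of edgeR, and a gene was called at an adjusted p under 0.05 over the 14382 genes tested. The labels do not say that the samples of a group came from separate mice, so the p-values measure the spread between these samples. Each group grew from its own pool of clones, so knockdown and clone pool cannot be told apart. The p-values do not cover differences between such pools. In whole tumours, fewer cells of a type and less RNA per cell cannot be told apart. The precursor gene of miR-21 had 0 counts in all 8 tumours. Its level would not measure the knockdown in any case, because the vector binds mature miR-21. These counts therefore do not show how far the knockdown reached.

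The RNA that the knockdown vector sequesters is shown first, followed by the promoters of an early cholesterol gene, a late cholesterol gene and the lipogenic gene with the largest rise. The mature miRNA lies at chr11:86584120-86584141 on the minus strand (GRCm38, RefSeq), and capitals mark its seed, bases 2 to 8. Each promoter window runs from 250 bases before to 50 bases after the RefSeq start of transcription, on the strand of the gene: chr13:119690101-119690400 (plus) for Hmgcs1, chrX:72918271-72918570 (plus) for Nsdhl and chr7:97417501-97417800 (minus) for Thrsp. Capitals in the promoters mark matches on either strand to TCACNCCAC, the core of a sterol regulatory site, and to CCAAT, the box bound by NF-Y.
mmu-miR-21a-5p: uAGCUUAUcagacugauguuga
Hmgcs1: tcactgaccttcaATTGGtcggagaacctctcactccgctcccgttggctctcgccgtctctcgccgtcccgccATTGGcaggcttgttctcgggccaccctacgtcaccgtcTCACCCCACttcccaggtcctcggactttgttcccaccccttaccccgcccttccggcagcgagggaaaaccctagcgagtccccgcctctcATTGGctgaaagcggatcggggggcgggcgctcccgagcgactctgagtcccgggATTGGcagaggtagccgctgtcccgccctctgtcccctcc
Nsdhl: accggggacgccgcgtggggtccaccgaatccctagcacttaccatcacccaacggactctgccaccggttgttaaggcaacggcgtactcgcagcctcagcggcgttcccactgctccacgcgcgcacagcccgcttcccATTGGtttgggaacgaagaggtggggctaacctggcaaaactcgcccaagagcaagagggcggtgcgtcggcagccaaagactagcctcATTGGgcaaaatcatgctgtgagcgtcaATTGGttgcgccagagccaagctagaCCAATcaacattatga
Thrsp: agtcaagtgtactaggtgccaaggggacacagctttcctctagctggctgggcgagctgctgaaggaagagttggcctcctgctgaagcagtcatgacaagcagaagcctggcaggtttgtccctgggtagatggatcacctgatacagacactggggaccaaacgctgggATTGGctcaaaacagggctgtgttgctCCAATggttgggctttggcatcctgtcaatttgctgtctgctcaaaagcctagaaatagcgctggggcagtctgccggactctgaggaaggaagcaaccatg

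RefSeq windows were found for 29 of the 35 genes, and for 27025 genes in all, with some genes holding more than 1 window. Fdps, Fdft1, Sqle, Scd1, Scd2 and Fads1 had none in the table. The letters TCACNCCAC occurred in 1 of the 29 genes, Hmgcs1, where the match starts 137 bases before the start of transcription, and in 1.44% of all genes. CCAAT was found in 24 of the 29 genes (82.8%) against 41.1% of all genes, and GGGCGG, the Sp1 box, in 23 (79.3%) against 38.2%. All 9 squalene and sterol genes with a window held both of these boxes. The E-box CACGTG was found in 6 of the 29 genes (20.7%) and in 8.09% of all genes. Nsdhl held 4 CCAAT matches and Thrsp 2, and in the 3 printed promoters no match to one motif overlapped a match to another. These shares describe letters in a window and were not tested.

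Most sterol genes were called lower in the miR-21-KD tumours (8 of 11, or 12 of 18 with the mevalonate steps). The core genes of fatty acid synthesis did not pass the test in either direction, and a pair of lipogenic genes, Scd1 and Thrsp, rose. Of the 35 genes, 17 were called lower and 3 higher, which is 57.1% of them against 39.1% of all genes tested. The lower calls made up 48.6% of the set against 19.5% of all genes, and the higher calls 8.57% against 19.6%. The median log2 fold change was -0.49, beside -0.01 over all genes tested. In 10 of the 35 genes, all called lower, every miR-21-KD tumour lay below every VC tumour, against 18.9% of all genes. In the 3 higher genes every miR-21-KD tumour lay above, which is 8.57% of the 35 against 16.3% of all genes.

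**Figure D1:**
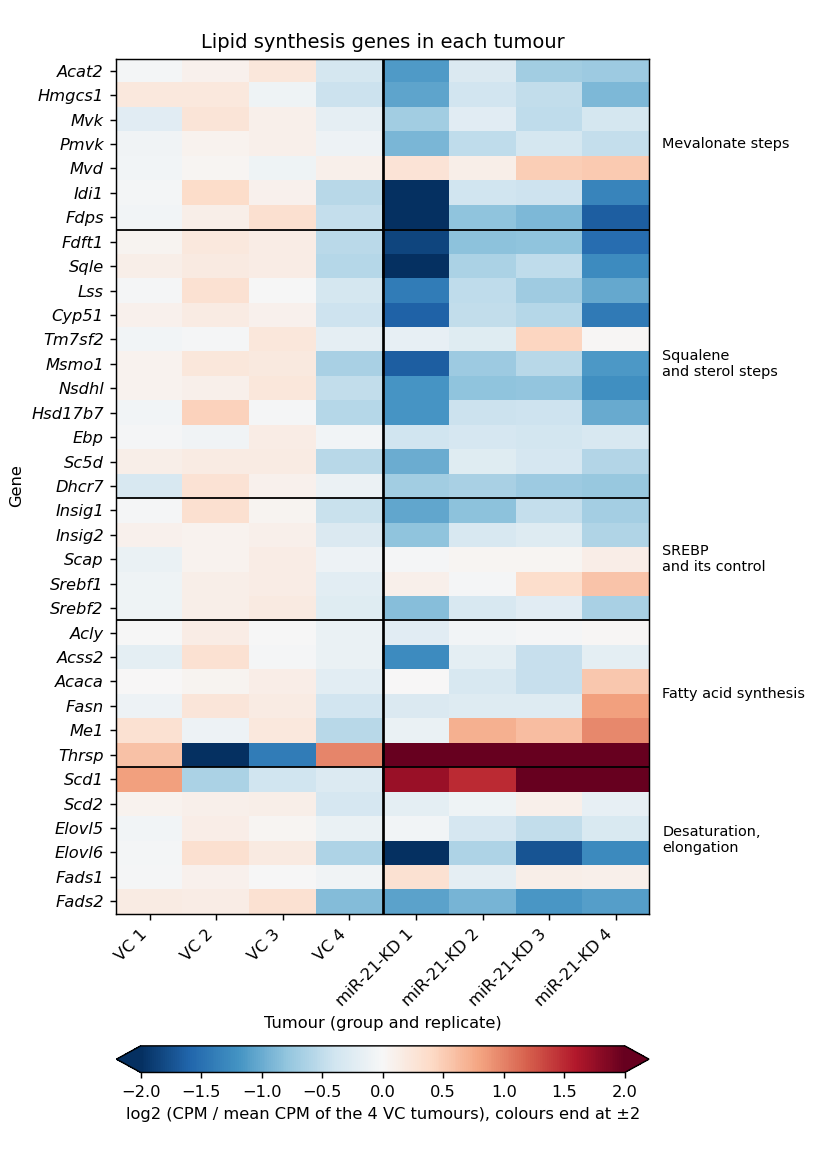
Level of the 35 genes in each of the 8 tumours, as the log2 ratio of CPM to the mean CPM of the 4 VC tumours, with genes in rows by role and tumours in columns. Blue is below and red above the VC mean, and colours end at a log2 ratio of 2 on either side. The mevalonate and sterol rows are mostly blue in the miR-21-KD columns and deepest in miR-21-KD tumour 1, and the rows of Scd1 and Thrsp are red in all 4 miR-21-KD columns.

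Of the 18 mevalonate and sterol genes, 12 were called lower (66.7%, against 19.5% of all genes) and 1 higher (5.56% against 19.6%). Their median was -0.71. Their summed level was 972, 1063, 1022 and 718 CPM in VC tumours 1 to 4 and 411, 659, 656 and 500.4 CPM in miR-21-KD tumours 1 to 4, without overlap. The tumours of a group were not alike in it. VC tumour 4 was the lowest of its group in 14 of the 18 genes and miR-21-KD tumour 1 the lowest of its group in 14. Among the knockdown tumours, miR-21-KD 2 was highest in 9 genes and miR-21-KD 3 in 7. With the replicate number as a block, which pairs tumours of the same number, the lower calls in all 35 genes came to 20 and the higher calls to 3, against a background of 45.1% called in either direction, and all 20 calls of the unblocked test were among these 23. Omission of 1 tumour at a time kept 12 of the 20 calls every time. The lower calls fell from 17 to 10 without VC 2, without VC 3 and without miR-21-KD 4, and the higher calls from 3 to 2 without VC 1, VC 2, VC 3, miR-21-KD 3 or miR-21-KD 4.

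In the mevalonate steps, 4 of 7 genes were lower (57.1%, against 19.5% of all genes), 1 was higher (14.3% against 19.6%) and 2 did not pass. The lower ones were 2 without VC 2, VC 3 or miR-21-KD 4. The largest fall was that of Fdps (chr3:89093588-89101959, minus strand, GRCm38), which encodes farnesyl diphosphate synthase at the branch to sterols and isoprenoids. It had 53.6, 60.6, 69.5 and 40.1 CPM in VC and 12.4, 32.1, 30.1 and 17.9 CPM in miR-21-KD tumours. Every miR-21-KD tumour lay below every VC tumour, with miR-21-KD 1 and 4 the lowest, and the level fell by 1.27 on the log2 scale (standard error 0.30, adjusted p = 0.0147). Of the annotated exon bases of Fdps, 26.7% also lie in another gene model on the same strand. Whether the counting used that model is not given in the sources used here. If it did, some reads of Fdps could have been assigned elsewhere. Pmvk, for phosphomevalonate kinase, had 36.1, 39.9, 40.9 and 35.4 CPM in VC and 20.3, 26.6, 29.7 and 27.5 CPM in miR-21-KD tumours. Its groups did not overlap either, and it fell by 0.55 (standard error 0.13, adjusted p = 0.0135).

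Acat2, the cytosolic thiolase that opens the pathway by joining 2 acetyl-CoA, had 33.3, 36.1, 40.0 and 26.7 CPM in VC and 15.4, 27.8, 20.9 and 20.5 CPM in miR-21-KD tumours. The groups overlapped, because VC tumour 4 lay below miR-21-KD tumour 2, and Acat2 fell by 0.68 (standard error 0.19, adjusted p = 0.0238). Hmgcs1, the HMG-CoA synthase whose promoter is printed above, ranged over 98.5 to 155 CPM in VC and 63.9 to 102 CPM in miR-21-KD tumours and fell by 0.68 (standard error 0.19, adjusted p = 0.0251). Mvk, mevalonate kinase, and Idi1, the isopentenyl diphosphate isomerase, had log2 fold changes of -0.43 and -0.90 with adjusted p of 0.0536 and 0.0911, and with the replicate block both passed (0.0280 and 0.0388). Mvd, the decarboxylase between these steps, went the other way. It had 17.8, 19.0, 17.4 and 19.8 CPM in VC and 22.4, 20.1, 25.9 and 26.5 CPM in miR-21-KD tumours, a rise of 0.36 without overlap (standard error 0.12, adjusted p = 0.0408). The calls of Acat2, Hmgcs1 and Mvd rested on single tumours. Acat2 missed the threshold without VC 2, VC 3, miR-21-KD 3 or miR-21-KD 4, Hmgcs1 without VC 1, VC 2, VC 3, miR-21-KD 1 or miR-21-KD 4, and Mvd without any tumour but VC 4 and miR-21-KD 2, with adjusted p of up to 0.0694, 0.0714 and 0.113. Mvd also missed it with scaling by library size alone (0.0515) and with no filter on low counts (0.0789).

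In the squalene and sterol steps, 8 of 11 genes were lower (72.7%, against 19.5% of all genes) and none was higher. The lower ones were 5 without VC 2, VC 3 or miR-21-KD 4, and the median log2 fold change of the 11 was -0.87. Fdft1, squalene synthase, fell most. It had 63.6, 70.7, 67.9 and 42.2 CPM in VC and 17.1, 34.6, 34.9 and 21.1 CPM in miR-21-KD tumours, and the groups were apart, with a fall of 1.18 (standard error 0.26, adjusted p = 0.0120). In the annotation, 18.3% of its exon bases lie opposite exons of Ctsb, and the strand setting of the counting is not given in the sources used here. Sqle, squalene epoxidase and a rate-limiting enzyme of the sterol branch, had 139, 145, 141 and 86.2 CPM in VC and 30.6, 82.3, 89.8 and 53.4 CPM in miR-21-KD tumours. VC tumour 4 stood well under the other VC tumours and below miR-21-KD tumour 3, so the groups overlapped, and the fall was 1.00 on the log2 scale (standard error 0.32, adjusted p = 0.0385). Lss, which closes the ring of lanosterol, had 30.1, 38.0, 30.5 and 24.0 CPM in VC and 11.6, 21.5, 18.7 and 15.1 CPM in miR-21-KD tumours. Its groups did not overlap, and it fell by 0.87 (standard error 0.21, adjusted p = 0.0148).

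The enzymes that trim lanosterol toward cholesterol followed. Nsdhl (chrX:72918557-72958514, plus strand), the sterol dehydrogenase of C4 demethylation, had 52.1, 53.2, 58.3 and 35.5 CPM in VC and 22.0, 28.5, 28.7 and 21.2 CPM in miR-21-KD tumours. The groups were apart, the level fell by 0.99 (standard error 0.18, adjusted p = 0.00700), and this adjusted p was the smallest of the 35 genes. Msmo1, the methyl sterol oxidase of the same reaction, had 96.8, 108, 105 and 59.2 CPM in VC and 29.5, 55.7, 63.1 and 41.9 CPM in miR-21-KD tumours. Here VC 4 lay within the range of the knockdown group, and the fall was 0.96 (standard error 0.26, adjusted p = 0.0225). Cyp51, the lanosterol demethylase, ranged over 60.6 to 91.3 CPM in VC and 26.5 to 57.5 CPM in miR-21-KD tumours and fell by 0.94 (standard error 0.27, adjusted p = 0.0248). The block called Hsd17b7, the ketoreductase of this complex, as well (log2 fold change -0.72, adjusted p = 0.0510 without and 0.0143 with the block). With 1 tumour left out, adjusted p reached 0.0984 for Sqle and 0.0673 for Cyp51, whose calls were lost without VC 1, VC 2, VC 3 or miR-21-KD 4 (that of Sqle also with no filter on low counts, 0.0535), and 0.0642 for Msmo1, whose call was lost without VC 2, VC 3 or miR-21-KD 4.

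Of the last steps, Ebp encodes the isomerase that moves the double bond of the sterol ring. It had 76.0, 74.2, 86.1 and 74.4 CPM in VC and 58.9, 61.5, 60.3 and 62.1 CPM in miR-21-KD tumours. The fall was small, 0.36 on the log2 scale, but the miR-21-KD tumours lay close together and below all VC tumours (standard error 0.07, adjusted p = 0.0104). Dhcr7, the reductase that ends one branch of the pathway, had 41.1, 62.2, 54.3 and 47.1 CPM in VC and 31.7, 32.8, 30.9 and 30.4 CPM in miR-21-KD tumours. These groups did not overlap, and the level fell by 0.70 (standard error 0.13, adjusted p = 0.00734). Sc5d, the desaturase before it, did not pass (log2 fold change -0.51, adjusted p = 0.0811), nor did Tm7sf2, a C14 sterol reductase (0.03, adjusted p = 0.903). Tm7sf2 had no more than 9.98 CPM in any tumour, the lowest maximum of the 11 genes, and 12.1% of its exon bases are shared with a neighbouring gene on the same strand.

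**Figure D2:**
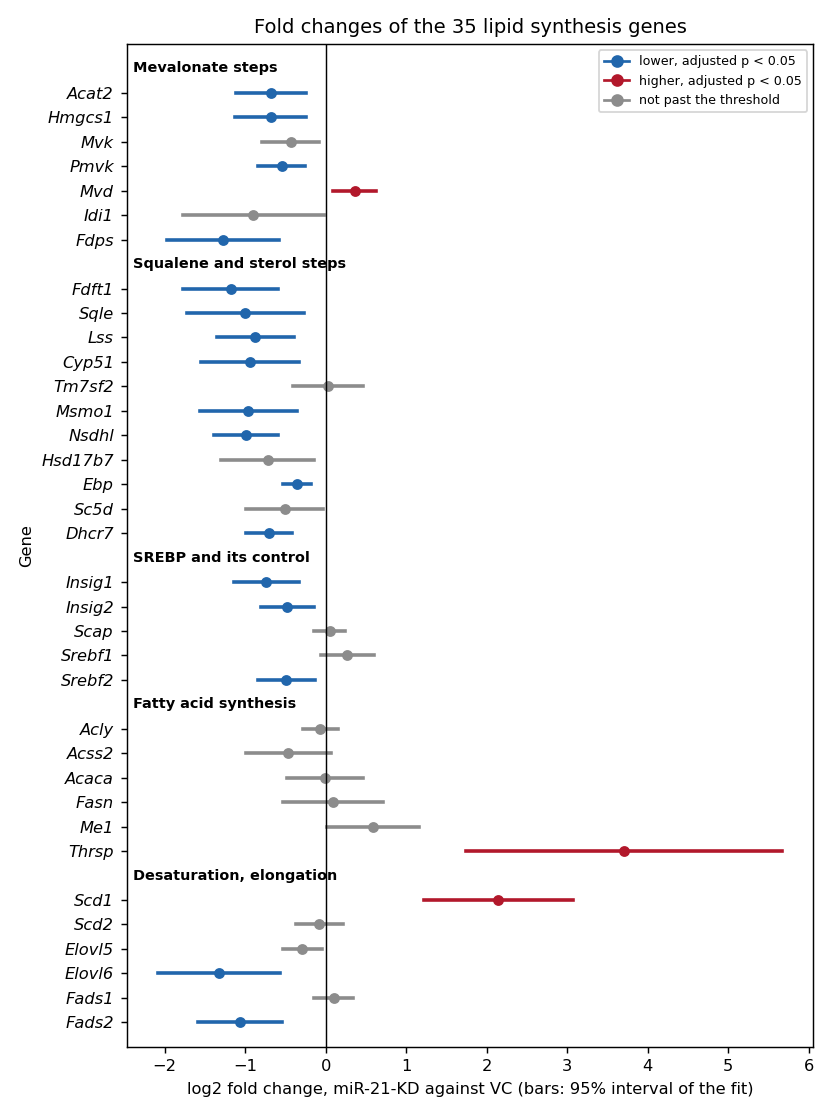
Log2 fold changes of miR-21-KD against VC tumours for the 35 genes by role, as points with bars for the 95% interval of the fit. Blue marks genes called lower (17), red those called higher (3) and grey the 15 others. The points of the sterol steps lie left of 0 except Tm7sf2, and the points of Thrsp and Scd1 lie farthest to the right.

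Among the SREBP factors and their control, 3 of 5 genes were lower (60.0%, against 19.5% of all genes) and none was higher. Only 1 was lower without VC 1, VC 2, VC 3, miR-21-KD 1 or miR-21-KD 4. Srebf2 (chr15:82147181-82205379, plus strand), which encodes SREBP2, had 139, 161, 167 and 125 CPM in VC and 82.1, 119, 126 and 94.1 CPM in miR-21-KD tumours. The groups overlapped by VC tumour 4 and miR-21-KD tumour 3, whose values were near each other, and Srebf2 fell by 0.49 (standard error 0.16, adjusted p = 0.0361). Srebf1 (chr11:60199089-60222581, minus strand), which encodes SREBP1, had 114, 132, 135 and 105 CPM in VC and 130.2, 119.9, 154 and 181 CPM in miR-21-KD tumours. Only miR-21-KD 3 and 4 lay above the VC range, and the log2 fold change was 0.27 (standard error 0.14, adjusted p = 0.162). The log2 ratio of Srebf1 to Srebf2 counts, which does not depend on how libraries are scaled, was -0.292, -0.284, -0.310 and -0.252 in VC and 0.665, 0.0133, 0.286 and 0.942 in miR-21-KD tumours. The VC tumours were close together and all below the miR-21-KD tumours (difference 0.76). A two-sided exact permutation test gave p = 0.0286, which is the lowest value that groups of 4 can reach. With the tumours paired by number, all 4 pairs moved this way, but the smallest exact p that 4 pairs allow is 0.125. Adjusted over the 5 gene pairs compared in this way, the unpaired p was 0.0714, so none of them passed.

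Insig1, which retains SCAP in the endoplasmic reticulum and is itself a target of SREBP2, had 56.3, 71.6, 59.4 and 41.9 CPM in VC and 27.7, 32.5, 41.1 and 35.9 CPM in miR-21-KD tumours. The groups did not overlap, although miR-21-KD 3 came close to VC 4, and Insig1 fell by 0.74 (standard error 0.18, adjusted p = 0.0149). Its relative Insig2 had 94.3, 92.8, 94.7 and 72.2 CPM in VC and 50.7, 71.1, 74.3 and 58.2 CPM in miR-21-KD tumours. There miR-21-KD 3 lay above VC 4, and the fall was 0.48 (standard error 0.14, adjusted p = 0.0304). The ratio of Insig1 to Insig2 differed by -0.24 between the groups (exact two-sided permutation test, p = 0.0857). Scap, which escorts SREBP to the Golgi, had 62.8, 72.4, 76.2 and 64.4 CPM in VC and 67.8, 71.2, 70.9 and 75.5 CPM in miR-21-KD tumours. These ranges overlapped, and the difference was 0.05 (95% interval -0.14 to 0.24, adjusted p = 0.667). In the annotation, 13.2% of the exon bases of Scap lie opposite another gene. The calls of Srebf2 and Insig2 were lost without VC 1, VC 2, VC 3, miR-21-KD 1 or miR-21-KD 4, with adjusted p of up to 0.0973 and 0.0818.

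**Figure D3:**
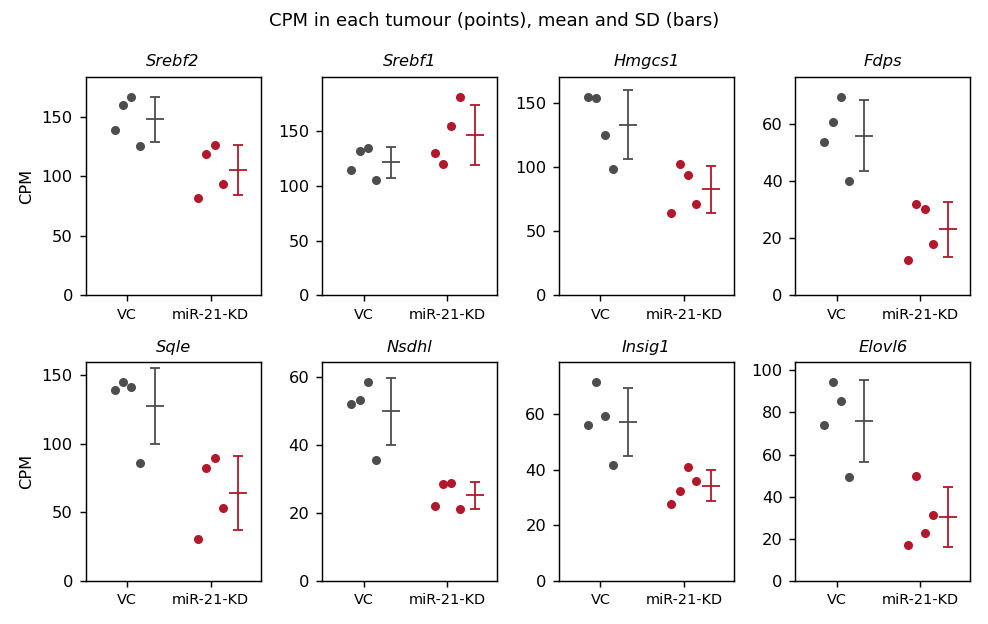
CPM of Srebf2, Srebf1, Hmgcs1, Fdps, Sqle, Nsdhl, Insig1 and Elovl6 in each tumour, as points for VC (grey) and miR-21-KD (red), with the mean and SD of 4 tumours beside them. The groups are apart for Fdps, Nsdhl and Insig1 and touch or overlap for the other 5 genes.

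In fatty acid synthesis, none of 6 genes was lower and Thrsp was the only one called higher (16.7%, against 19.6% of all genes). The median of the 6 was 0.04. Without miR-21-KD 1 there were 2 higher, as Me1 then passed (adjusted p = 0.0305). Fasn, the fatty acid synthase, had 257, 324, 308 and 211 CPM in VC and 225, 230.4, 229 and 483 CPM in miR-21-KD tumours. Of the miR-21-KD tumours 3 lay within the VC range and miR-21-KD 4 far above it, and the log2 fold change was 0.09 (95% interval -0.53 to 0.71, adjusted p = 0.819). Without miR-21-KD 4 the sign turned, to -0.27 (adjusted p = 0.214). Acaca, the acetyl-CoA carboxylase that commits carbon to fatty acids, had 45.6, 47.1, 49.5 and 39.0 CPM in VC and 45.7, 36.3, 32.9 and 65.6 CPM in miR-21-KD tumours. It was also highest in miR-21-KD 4 among otherwise mixed tumours, and the log2 fold change was -0.01 (95% interval -0.48 to 0.46, adjusted p = 0.984). Acly, which makes cytosolic acetyl-CoA from citrate, Acss2, which makes it from acetate, and Me1, which supplies NADPH, had log2 fold changes of -0.07, -0.46 and 0.59 and did not pass (adjusted p of 0.588, 0.137 and 0.0899).

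Thrsp (chr7:97412938-97417730, minus strand), a lipogenic protein of fat, liver and mammary gland, had 5.31, 0.558, 1.34 and 6.95 CPM in VC and 48.8, 14.7, 17.9 and 104 CPM in miR-21-KD tumours. Levels differed many-fold within each group, with miR-21-KD 4 the highest, yet every miR-21-KD tumour lay above every VC tumour. The rise of 3.71 on the log2 scale was the largest of the 35 genes (standard error 0.86, adjusted p = 0.0138). Scd1 (chr19:44394455-44407879, minus strand), the stearoyl-CoA desaturase that makes monounsaturated fatty acids, had 598, 219.6, 258 and 281 CPM in VC and 1123, 956, 1436 and 2478 CPM in miR-21-KD tumours. VC 1 stood above the other VC tumours and miR-21-KD 4 above the other miR-21-KD tumours, the groups did not overlap, and Scd1 rose by 2.14 (standard error 0.41, adjusted p = 0.00810). Both calls held whichever tumour was left out. The second desaturase Scd2 ranged over 388 to 531 CPM in VC and 429 to 525 CPM in miR-21-KD tumours, with a difference of -0.08 (95% interval -0.37 to 0.21, adjusted p = 0.638). Per kilobase of transcript, Scd2 had 90.0 CPM in VC against 70.2 for Scd1, and in miR-21-KD tumours 85.1 against 310.0, so the order of the group means switched. In VC 1, unlike the other VC tumours, Scd1 was already above Scd2.

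The log2 ratio of Scd1 to Scd2 counts was 0.209, -1.27, -1.04 and -0.462 in VC and 1.39, 1.04, 1.45 and 2.50 in miR-21-KD tumours. The groups did not overlap, with a difference of 2.24 (exact two-sided permutation test, p = 0.0286, adjusted p = 0.0714 over the 5 pairs). The Scd genes are near copies of one another, and how the counting assigned reads that fit more than one of them is not given in the sources used here.

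The rise of Scd1 and Thrsp went with a rise of adipocyte genes. The 10 adipocyte markers examined were Adipoq, Plin1, Cidec, Lep, Cfd, Retn, Fabp4, Pparg, Lpl and Cd36, of which macrophages also express Fabp4, Pparg, Lpl and Cd36. All 10 were called higher (against 19.6% of all genes) and were higher without overlap (against 16.3%). Their summed level was 622, 159, 228 and 321 CPM in VC and 1536, 839, 1212 and 2272 CPM in miR-21-KD tumours, and their median log2 fold change was 2.52. VC 1 was the highest VC tumour and miR-21-KD 4 the highest miR-21-KD tumour in this sum, as in Scd1. In Thrsp miR-21-KD 4 was also the highest of its group, but VC 4 (6.95 CPM) lay above VC 1 (5.31 CPM). Adipoq, the hormone adiponectin made by fat cells, was present in every tumour, with 28.0, 5.42, 10.0 and 13.3 CPM in VC and 73.3, 34.6, 65.3 and 141 CPM in miR-21-KD tumours. The part of adipocytes in the levels of Scd1, Thrsp and Fasn was not tested.

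**Figure D4:**
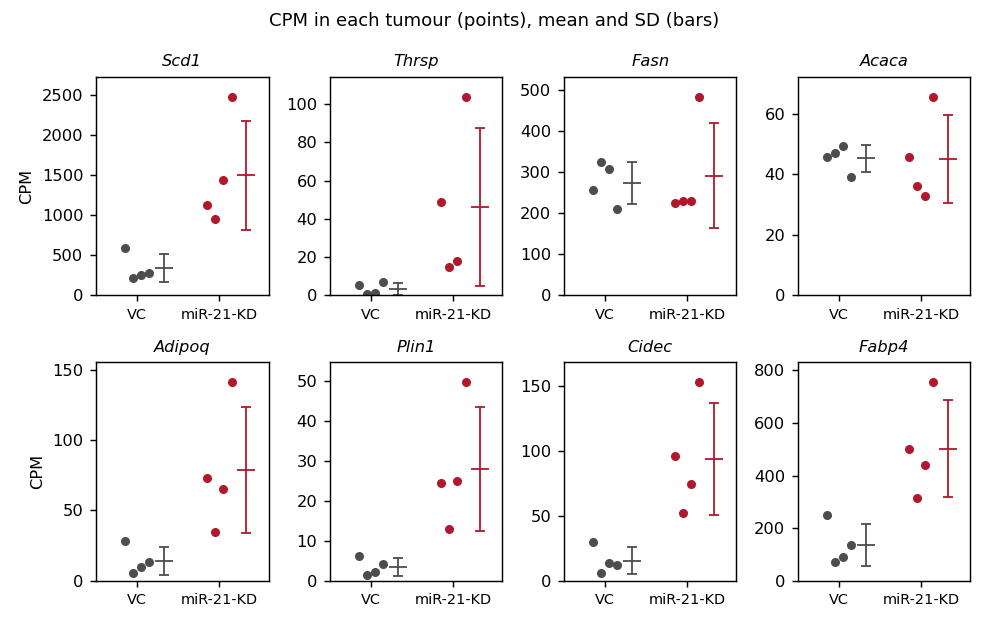
CPM of Scd1, Thrsp, Fasn and Acaca (upper row) and of the adipocyte markers Adipoq, Plin1, Cidec and Fabp4 (lower row) in each tumour, as points for VC (grey) and miR-21-KD (red), with the mean and SD of 4 tumours beside them. Scd1, Thrsp and the 4 markers do not overlap between the groups, and the highest red point in Fasn, 483 CPM, belongs to miR-21-KD tumour 4.

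Of the 6 genes of desaturation and elongation, 2 were lower (33.3%, against 19.5% of all genes) and 1, Scd1, was higher (16.7% against 19.6%). Fads2, the delta-6 desaturase of polyunsaturated fatty acids, had 34.7, 34.4, 38.4 and 17.2 CPM in VC and 14.8, 16.3, 14.0 and 14.6 CPM in miR-21-KD tumours. The miR-21-KD tumours were close together and all below the VC tumours, of which VC 4 came nearest, and Fads2 fell by 1.06 (standard error 0.23, adjusted p = 0.0113). Elovl6, which extends palmitate to stearate, had 74.1, 94.3, 85.5 and 49.4 CPM in VC and 16.8, 49.7, 22.8 and 31.5 CPM in miR-21-KD tumours. VC 4 and miR-21-KD 2 had nearly the same value and the other tumours were apart, and the fall of 1.33 was the largest of the 35 genes (standard error 0.33, adjusted p = 0.0168). Fads1, the delta-5 desaturase beside Fads2 on chromosome 19, and Elovl5, an elongase of polyunsaturated fatty acids, had log2 fold changes of 0.10 and -0.29 and did not pass (adjusted p of 0.481 and 0.0594). The ratios of Fads1 to Fads2 and of Elovl5 to Elovl6 differed by 1.09 and 1.11 on the log2 scale (exact two-sided permutation tests, p = 0.0571 for each).

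Genes of the same pathways outside the set were read from the same fit. Of 72 such genes tested, 19 were lower (26.4%, against 19.5% of all genes) and 18 higher (25.0% against 19.6%), with a median of 0.04. Of 10 genes of late sterol and isoprenoid synthesis, 5 were lower and none higher, while 0 passed without VC 2, VC 3, miR-21-KD 1, miR-21-KD 3 or miR-21-KD 4, and 2 without VC 4. Fntb, a subunit of protein farnesyltransferase, fell by 0.66 (adjusted p = 0.0246) and Pdss2, for the side chain of ubiquinone, by 0.56 (0.0445). With these omissions the adjusted p of Fntb and Pdss2 reached 0.0711 and 0.114, and Pdss2 was also lost without VC 4. With the replicate block 4 of the 10 were lower.

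Of 12 genes of SREBP processing and the related LXR and ChREBP factors, 4 were lower and 1 higher, and the 41.7% called were close to the 39.1% of all genes. The higher count was 0 without VC 3 and 2 without VC 4. Mbtps1 and Mbtps2 encode the site-1 and site-2 proteases that release SREBP in the Golgi. Mbtps1 had 198, 251, 245 and 203 CPM in VC and 134, 162, 134 and 119 CPM in miR-21-KD tumours, and Mbtps2 had 50.1, 54.6, 53.3 and 41.0 CPM in VC and 36.1, 34.9, 35.5 and 32.1 CPM in miR-21-KD tumours. Neither overlapped between the groups, and they fell by 0.71 (adjusted p = 0.00679) and 0.52 (adjusted p = 0.00930), calls that held whichever tumour was left out. Mlx, the partner of ChREBP, fell by 0.37 (adjusted p = 0.0112), whereas Mlxipl, which encodes ChREBP itself and is named after its value was seen, rose by 2.12 without overlap (adjusted p = 0.0165). The Mlxipl call was lost without VC 3 (0.0514). With the block 2 of the 12 were higher.

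Of 14 genes of cholesterol traffic and efflux, 9 were higher (64.3%, against 19.6% of all genes) and 2 lower (14.3% against 19.5%), with a median of 0.71, opposite in sign to the sterol genes. Without VC 3 there were 6 higher, and 0 were lower without VC 1, VC 2, miR-21-KD 3 or miR-21-KD 4 and 1 without VC 3 or miR-21-KD 1. Abca1, which exports cholesterol and is a target of LXR, had 175, 82.3, 77.3 and 145 CPM in VC and 797, 292, 453 and 521 CPM in miR-21-KD tumours. All miR-21-KD tumours were above all VC tumours, and the rise was 2.10 (adjusted p = 0.00693). Ch25h, which makes 25-hydroxycholesterol, had 39.5, 21.5, 47.0 and 41.9 CPM in VC and 138, 77.1, 154 and 153 CPM in miR-21-KD tumours, a rise of 1.80 without overlap (adjusted p = 0.00598). Lipa, the lysosomal lipase that frees cholesterol from its esters, rose by 0.57 (adjusted p = 0.00699). Macrophages are rich in transcripts of this kind, and 6 of 8 macrophage markers were higher too (75.0%, against 19.6% of all genes). Without VC 3 there were 3 higher. The summed level of the 8 was 3119.8 to 4802 CPM in VC and 5810.2 to 9812 CPM in miR-21-KD tumours. No macrophage marker was at 0 in any tumour, and the part of these cells in the result was not tested.

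**Figure D5:**
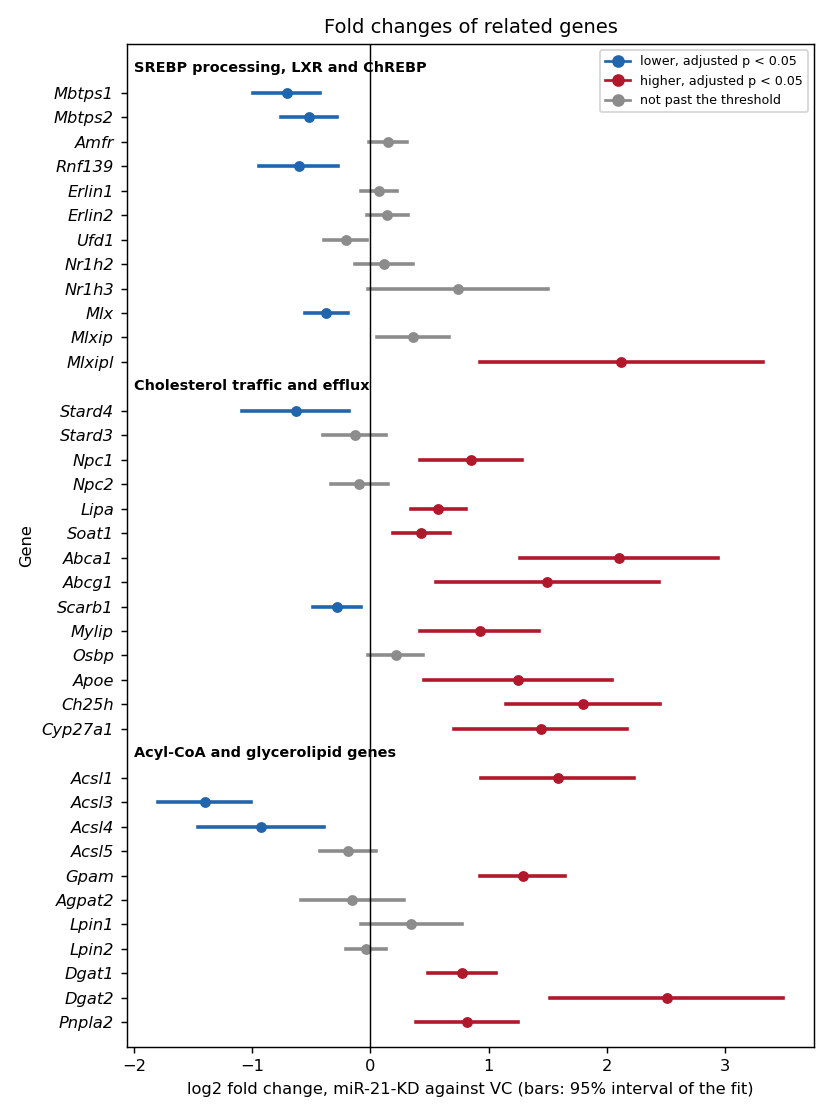
Log2 fold changes of miR-21-KD against VC tumours for genes of SREBP processing, cholesterol traffic and efflux, and acyl-CoA and glycerolipid genes, as points with bars for the 95% interval of the fit, in blue (lower), red (higher) or grey (not past the threshold). Mbtps1 and Mbtps2 lie left of 0, and 9 of the 14 traffic genes are red.

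Of 14 further fatty acid genes tested, 5 were lower and 1 higher, or 42.9% against 39.1% of all genes, and 3 were lower without VC 1, VC 2, VC 3 or miR-21-KD 1. With the block or without miR-21-KD 3 there were 2 higher, and without miR-21-KD 2 there were 3. Elovl7, an elongase, fell by 1.70 (adjusted p = 0.00520), Idh1, the cytosolic isocitrate dehydrogenase that yields NADPH, fell by 1.52 (0.00571), and Fads3 rose by 1.53 (0.00563). Elovl3 and Elovl4 did not reach the count minimum of the test. Among 11 acyl-CoA and glycerolipid genes, which include the triglyceride lipase Pnpla2, 5 were higher (45.5%, against 19.6% of all genes). Another 2 were lower (18.2% against 19.5%), of which Acsl4 was lost without miR-21-KD 4 (adjusted p = 0.0526). Pnpla2 was among the higher ones (log2 fold change 0.82, adjusted p = 0.0138). Acsl3, an acyl-CoA synthetase, had 81.9, 117, 91.9 and 72.7 CPM in VC and 27.6, 37.3, 40.7 and 31.8 CPM in miR-21-KD tumours and fell by 1.40 without overlap (adjusted p = 0.00501). Gpam and Dgat1, for the first and the last step of triglyceride synthesis, rose by 1.29 and 0.77 (adjusted p of 0.00501 and 0.00629). The adipocyte markers were also higher in miR-21-KD tumours, and miR-21-KD 4, the highest in their sum, was also highest for Dgat1 and Pnpla2 though not for Gpam. The part of adipocytes in these rises was not tested. Of 11 genes of fatty acid oxidation tested, 2 were higher and 1 lower, or 27.3% against 39.1% of all genes, and without miR-21-KD 4 there were 0 higher and 2 lower. Decr1 and Cpt2 rose by 0.81 and 0.33 (adjusted p of 0.0268 and 0.0281), and Acadm fell by 0.29 (adjusted p = 0.0387, 0.0522 with the replicate block). These calls did not hold without VC 2, VC 3 or miR-21-KD 1, nor for some of the 3 genes without a further tumour, with adjusted p of up to 0.0747, 0.0812 and 0.0992.

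Markers of dividing cells fell alongside the sterol genes, and epithelial markers were mixed. Of 8 proliferation markers 6 were lower (75.0%, against 19.5% of all genes). The summed level of the 8 was 1832, 1894, 1940.3 and 1352 CPM in VC and 510.2, 1468, 707 and 588 CPM in miR-21-KD tumours. VC 4 and miR-21-KD 1 were the lowest of their groups, as in the sum of the 18 cholesterol genes. At the upper end VC 3 led the proliferation sum and VC 2 the cholesterol sum, and miR-21-KD 2 stood far above miR-21-KD 3 in the first and next to it in the second. With the replicate block 7 of the 8 were lower, whereas without VC 2, VC 3, miR-21-KD 3 or miR-21-KD 4 only 2 were, and without miR-21-KD 1 there were 3. Of 6 epithelial markers 4 were higher (66.7%, against 19.6% of all genes) and 1 was lower (16.7% against 19.5%). The rises on the log2 scale were 3.60 for Krt19, 1.93 for Epcam, 1.52 for Cdh1 and 1.26 for Krt7 (adjusted p of 0.00688, 0.0182, 0.0185 and 0.0188). Of these, Krt19 held in all omissions, whereas Epcam missed the threshold without VC 3 (0.0526), Cdh1 without VC 2 (0.0537) and Krt7 without miR-21-KD 3 or miR-21-KD 4 (up to 0.0511). Krt18 was lower (-1.15, adjusted p = 0.0374), a call that was lost without VC 1, VC 2, VC 3, miR-21-KD 3 or miR-21-KD 4 (up to 0.0941), and Krt8 had -0.88 without passing (0.0870, 0.0413 with the block). The lowest miR-21-KD tumour was miR-21-KD 1 for Krt8, Krt18 and Krt7 and miR-21-KD 2 for Krt19, Epcam and Cdh1. Of 8 T cell markers 5 were higher (62.5%, against 19.6% of all genes). The higher count was 7 with the block, 2 without VC 3, 3 without miR-21-KD 1 or miR-21-KD 4 and 8 without VC 4. Summed, these markers had 44.4 to 170.4 CPM in VC and 151 to 337 CPM in miR-21-KD tumours. Of 7 mammary secretory markers tested 2 were higher and 1 lower, and the 42.9% called were close to the 39.1% of all genes. With the block 4 were higher and 0 lower. The higher count was 0 without VC 2, VC 3, miR-21-KD 1, miR-21-KD 3 or miR-21-KD 4. It was 1 without VC 1 and 3 without VC 4 or miR-21-KD 2. The lower call was lost without miR-21-KD 1 or miR-21-KD 4. Summed over all 8, these markers had 431 to 619.6 CPM in VC and 519 to 797 CPM in miR-21-KD tumours, and Wap had at most 19 counts in a tumour. Of 4 skin keratinocyte markers tested 2 were higher and 1 lower, and with the block 3 higher and 1 lower, while 1 was higher without VC 2, VC 3, VC 4, miR-21-KD 1, miR-21-KD 3 or miR-21-KD 4 (10.8 to 76.8 CPM in VC and 38.8 to 263 CPM in miR-21-KD tumours, summed over 6), with Dsg1a at no more than 9 counts. The parts of cell division and of cell makeup in the fall of the sterol genes were not tested.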

How the data were processed

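Total RNA of 4 VC and 4 miR-21-KD tumours was sequenced, and the authors deposited a table of raw, unnormalized counts with Entrez identifiers in rows and the 8 tumours in columns. Per the processing notes of the submitters, Subread, featureCounts, edgeR and limma were used with build mm10. Versions and the strand setting are not given in the sources used here. An unstranded count would pool reads of overlapping genes. Symbols came from RefSeq (GRCm38.p6) and matched 25275 of the 27179 identifiers, all 35 members among them. Positions are from GENCODE and promoters and the miRNA from RefSeq, both of the same build.

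Analysis was done with edgeR 4.0.16 (R 4.3.3). Genes were filtered by filterByExpr on the groups (at least 10 counts, at least 15 in total), libraries were scaled with TMM factors, and the robust quasi-likelihood test was run over 14382 genes with Benjamini-Hochberg adjustment at 0.05. Ratios of counts were compared with exact permutation tests in Python 3.11.15 and scipy 1.17.1. Levels per kilobase used the longest coding transcript. Alternatives were DESeq2 1.42.0, limma-voom (limma 3.58.1) with and without quality weights, RLE, upper-quartile and library-size scaling, other filters, a minimum change of 1.5-fold (glmTreat), a stricter threshold of 0.01, a replicate block and omission of each tumour. Procedures were tested on simulated data.

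The members and lists were chosen with earlier results of these data known. Values per tumour are given for the 14 called members with the smallest adjusted p, for the 5 genes of SREBP control and for Sqle, Acaca, Fasn and Scd1, and up to 3 genes of smallest adjusted p are named from each related list, of which 1 result is not reported here. Per-tumour values of Mvd, those of some genes outside the set, and the values of Mlxipl, Pnpla2, Acsl4 and the epithelial markers were added after they were seen. The genes Faxdc2 and Loricrin of the lists were not matched by these symbols. Both groups carry the replicate numbers 1 to 4 in the labels. Deviations from the group means correlated by 0.272, 0.421, 0.175 and 0.376 between tumours of the same number, all above 0.1. On this basis the numbers were taken to pair the tumours. The mean over the 12 other combinations was -0.105. Deviations cancel within a group, which by itself makes this mean negative when the same-number mean is positive, so the contrast adds no evidence. Only 5 of the tumours correlated best with their own number. The pairing is therefore an assumption, on which the replicate block and the paired tests rest. The origin of this pairing is not given in the sources used here. No 2 tumours of a group were alike within counting noise, with a chi-square per degree of freedom of at least 12.6.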

Additional observations from a re-analysis of the deposited data

Results flagged for a closer look

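In 70 groups of 4 tumours, 2 for each of the 35 genes, a tumour was picked out when its gap to the nearest other tumour took up most of the range of its group, at a level that chance reaches in about 1 of 20 groups. This applied to 8 groups. VC tumour 4 was the low value in 5 of them, with 86.2 CPM for Sqle (138.9 to 145 in the other 3), 60.6 CPM for Cyp51 (86.2 to 91.3), 25.2 CPM for Sc5d (40.2 to 41.8), 72.2 CPM for Insig2 (92.8 to 94.7) and 388 CPM for Scd2 (517 to 531). VC tumour 3 was the high value for Ebp, with 86.1 CPM against 74.2 to 76.0. VC tumour 1 was the high value for Scd1, with 598 CPM against 219.5 to 281. In the knockdown group the only tumour picked out was miR-21-KD 4, with 483 CPM for Fasn against 225 to 230.4 in the other 3.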

How the results depend on the processing

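No named gene changed direction with a call under any alternative. The 17 lower calls became 0 in the test of edgeR for changes above 1.5-fold, which called 542 genes in all, and 2 at an adjusted p under 0.01. In the former 9 of the lower genes had an unadjusted p under 0.05, and the other tools were run without a minimum fold. The 3 higher calls became 1 and 1. The 19 lower related genes became 3 and 5, and the 18 higher ones 6 and 8. With 1 tumour left out, the 4 counts ranged over 10 to 21 (members lower), 2 to 3 (members higher), 9 to 19 (related lower) and 12 to 20 (related higher). Scaling and filter, DESeq2 and limma-voom kept these counts within 1.5 times. Single calls were lost with no filter (Mvd, Sqle, Cpt2 at 0.0538 and Pdss2 at 0.0629), with library size alone (Mvd), with upper-quartile factors (Pdss2 at 0.0511 and Acadm at 0.0769), with RLE factors (Acadm at 0.0512) and with a minimum of 10 counts per tumour (Acadm at 0.0734), all adjusted p of edgeR. The last filter also removed Thrsp and Mlxipl, with 7 and 4 counts in their lowest tumours, so 2 members were higher there. With the replicate block the lower and higher calls of the 35 genes were 20 and 3, and the block changed no other call among the 35 genes, or among the related genes named, than those given with the results. The log2 ratios of Scd1 to Scd2 and of Srebf1 to Srebf2 kept their direction, at 1.93 to 2.52 and 0.61 to 0.92 when a tumour was left out, where p cannot go below 0.0571 and so says nothing of stability. A paired exact test of the 5 ratios, added after seeing the data, gave p = 0.125 for 4 of them, the smallest that 4 pairs allow, and 0.250 for Insig1 to Insig2. Depth limits the genes with few counts most, Thrsp and Idi1 among the members.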
